A study of Rattus norvegicus with 18 samples.

Results

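The genes described here are 10 of the 38445 genes counted in the dorsal hippocampus of 18 rats. They encode 4 large chondroitin sulfate proteoglycans of the lectican family (Acan, Bcan, Ncan and Vcan), the link proteins Hapln1 and Hapln4, the tenascins Tnr and Tnc, and the matrix proteases Adamts4 and Mmp9. They were taken by symbol as parts of the perineuronal net and the surrounding matrix. The rule used no measured value, but the list was drawn up with earlier results of these data known. All 10 were found by their NCBI rat gene identifiers, and all 10 passed the filter on low values, a normalized level above 0.5 CPM (counts per 1000000 counted read pairs, scaled by TMM factors) in at least 1 rat.

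All rats were adult male Sprague-Dawley rats, 75 to 85 days old when purchased and thus older when tissue was taken. They were housed singly and fed a Lieber-DeCarli liquid diet as their food and fluid. The control group (6 rats) stayed on control diet for 16 days. The chronic ethanol group (6 rats) was brought up to a diet with 9% ethanol, kept on it for 16 days and taken at 0 h of withdrawal. The withdrawal group (6 rats) had 15 days of 9% ethanol and was then given control diet for 24 h. RNA integrity was stated to be high in every sample, and the counts on genes came to between 30873228 and 42679748 read pairs per rat. The comparisons ask how matrix transcripts differ during drinking and 24 h after it stopped. Each library came from a whole dissected piece of tissue, so that fewer cells of a type and less RNA per cell cannot be told apart.

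Perineuronal nets are lattices of matrix that wrap the cell body and proximal dendrites of certain neurons, most of all parvalbumin interneurons and, in the hippocampus, CA2 pyramidal neurons. Their backbone is hyaluronan. Lecticans bind it through link proteins at one end and bind tenascin-R at the other, and this ties the chains into a net. Looser matrix of the same kind lies around synapses and nodes of Ranvier, much of it made by astrocytes and oligodendrocyte precursors. ADAMTS4 cuts the lectican core proteins, and MMP9 is a secreted gelatinase that cuts several matrix and adhesion proteins.

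Libraries carried index sequences from 3 sets. All 6 control rats had set 1, the 6 chronic ethanol rats and withdrawal rats 1 and 2 had set 2, and withdrawal rats 3 to 6 had set 3, so that index set and group cannot be told apart in either comparison with control. Several rats stood apart in sums over lists of cell type markers. Choroid plexus markers (10 genes) summed to 34.5 CPM in withdrawal rat 4 and 37.3 CPM in withdrawal rat 5, against 1148 to 5651 CPM in the other 16 rats. Meningeal and perivascular fibroblast markers (10 genes, with Col1a2 and Ogn at 0 in all rats) summed to 163 CPM in withdrawal rat 4 and to 274 to 699 CPM in the others. Markers of hippocampal neurons (10 genes) summed to 338 CPM in withdrawal rat 5 and 555 CPM in chronic ethanol rat 1, against 630 to 1137 CPM in the other 16 rats. Markers of thalamic neurons (10 genes) summed to 1826 CPM in chronic ethanol rat 1 and to between 297 and 1075 CPM elsewhere. Parvalbumin interneuron markers (10 genes, of which Gad1, Gad2 and Slc32a1 are shared by other inhibitory neurons) were highest in withdrawal rat 5 at 1362 CPM. They reached at most 1119 CPM in the other rats. Withdrawal rat 1 was set apart by the levels of members, being highest for Ncan, Acan and Mmp9. Values without one or more of these rats are given beside many of the results. Neutrophils store MMP9, and their markers (10 genes, with Elane at 0 in all rats) summed to at most 5.78 CPM. Blood markers (9 genes, with Hbb-bs at 0 in all rats) summed to 128 to 228 CPM in control, 37.4 to 97.2 CPM in chronic ethanol and 42.1 to 152 CPM in withdrawal rats, and endothelial markers (10 genes, with Ly6c at 0 in all rats) had a median sum of 359 CPM in control, 401 CPM in chronic ethanol and 422 CPM in withdrawal. The part of these in the differences between groups was not tested.

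In the genome build of the deposited files (Rnor_6.0), 2 pairs of members were neighbours (Ncan with Hapln4, and Vcan with Hapln1). Each lectican gene had a link protein gene as its neighbour with 0 annotated genes between them. Acan (chr1:140762758-140824441, plus strand) lay 2837 bases from Hapln3, and Bcan (chr2:187359674-187373133, minus strand) lay 21970 bases from Hapln2. Ncan (chr16:21050243-21076707, plus strand) was 4669 bases from Hapln4 (chr16:21081377-21089508, minus strand). Vcan (chr2:18490102-18587340, minus strand) and Hapln1 (chr2:18354542-18419077, plus strand) were 71024 bases apart. Of the remaining members, Tnr (chr13:77602249-77678385) and Adamts4 (chr13:89622996-89632485) shared chromosome 13, Tnc lay at chr5:79789686-79874555 and Mmp9 at chr3:161413410-161421473. The counting used strand.

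Promoter sequence was available for 9 of the 10 members, not for Mmp9. It is printed for Ncan and Bcan, which passed the test between groups, and for Hapln1 and Hapln4, whose levels varied with those of Bcan. Each line holds the 250 bases before the annotated start, 5′ to 3′, from RefSeq in build GRCr8. Capitals mark matches to the motifs searched on both strands, which did not overlap one another in these 4 promoters. They were GGGCGG (the GC box, in 30.5% of 33469 rat promoters of the same length), TATAAA (the TATA motif, in 12.9%), TTCNNNGAA (the STAT motif, in 7.67%) and TGANTCA (the AP-1 motif, in 6.34%). The windows are chr16:19335657-19335906 (plus strand) for Ncan, chr2:175765315-175765564 (minus strand) for Bcan, chr2:22366717-22366966 (plus strand) for Hapln1 and chr16:19375174-19375423 (minus strand) for Hapln4.
Ncan: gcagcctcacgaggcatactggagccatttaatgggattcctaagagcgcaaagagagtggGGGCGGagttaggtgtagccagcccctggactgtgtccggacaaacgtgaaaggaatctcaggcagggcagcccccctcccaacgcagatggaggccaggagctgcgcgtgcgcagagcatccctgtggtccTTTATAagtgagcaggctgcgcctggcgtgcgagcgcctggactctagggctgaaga
Bcan: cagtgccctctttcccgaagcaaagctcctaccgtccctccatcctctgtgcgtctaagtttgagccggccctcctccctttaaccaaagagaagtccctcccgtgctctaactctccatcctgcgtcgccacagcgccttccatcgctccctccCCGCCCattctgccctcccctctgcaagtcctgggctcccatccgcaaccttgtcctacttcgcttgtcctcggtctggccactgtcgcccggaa
Hapln1: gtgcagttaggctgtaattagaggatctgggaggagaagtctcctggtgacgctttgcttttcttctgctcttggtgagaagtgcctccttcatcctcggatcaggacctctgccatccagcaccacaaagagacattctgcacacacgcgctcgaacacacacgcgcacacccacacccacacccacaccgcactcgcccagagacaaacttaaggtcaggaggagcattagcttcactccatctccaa
Hapln4: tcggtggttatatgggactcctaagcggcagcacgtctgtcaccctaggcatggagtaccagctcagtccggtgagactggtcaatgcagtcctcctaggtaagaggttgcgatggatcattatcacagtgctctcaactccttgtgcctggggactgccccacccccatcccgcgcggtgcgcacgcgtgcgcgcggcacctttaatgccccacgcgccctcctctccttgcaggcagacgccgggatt

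The Ncan window held 1 GC box and, 57 to 52 bases before the start, the TATA motif on the minus strand. The Bcan window held 1 GC box, and the windows of Hapln1 and Hapln4 held none of the 4 motifs. Among all 9 members with sequence, a GC box was found in 5 (Acan, Bcan, Ncan, Vcan and Tnc). The Acan window was richest, with 3 matches and 73.6% G and C, and the Tnr window was poorest in G and C at 36.8%. The TATA motif was found in Ncan and Tnc. A STAT motif was found only in Adamts4, 121 to 113 bases before the start, and the AP-1 motif in none. A match describes the letters and not the binding of a factor.

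Levels can be compared between genes only per length of exon. In control rats, Hapln4, a link protein found with brevican in nets, was highest at 90.7 ± 11.7 CPM per kb (SD, n = 6). Bcan, the smallest lectican and the main one of adult brain, followed at 53.7 ± 3.59 CPM per kb. Ncan, a lectican made largely by astrocytes and young neurons, was at 22.8 ± 1.26 CPM per kb, and Tnr, the tenascin that crosslinks lecticans, at 18.1 ± 1.31 CPM per kb. Next came Hapln1 at 14.1 ± 1.38 CPM per kb and Adamts4 at 9.03 ± 1.56 CPM per kb. Vcan, Tnc and Acan were lower, at 4.56 ± 0.300, 3.17 ± 0.409 and 1.29 ± 0.0942 CPM per kb. Mmp9 was last at 1.07 ± 0.781 CPM per kb.

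Neighbours in this order did not overlap over the 6 control rats except Acan and Mmp9. Acan, the lectican most tied to dense perineuronal nets, was thus among the least abundant members per length. Of the 17853 genes tested, 96.2% had a lower mean level per kb than Hapln4 and 92.8% a lower one than Bcan, whereas only 27.7% were lower than Acan and 25.6% lower than Mmp9.

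**Figure D1:**
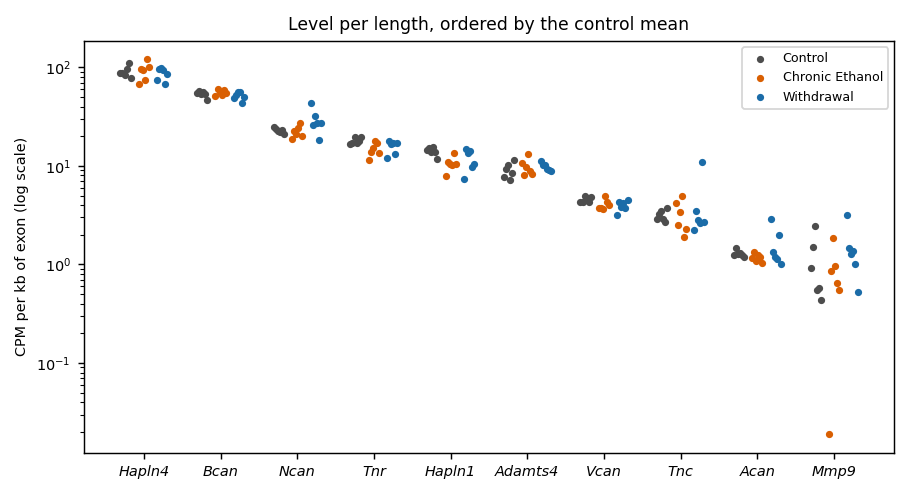
Level of each gene per kb of exon (log scale) in every rat, with control, chronic ethanol and withdrawal rats in grey, orange and blue from left to right, ordered by the control mean. Hapln4 leads at a control mean of 90.7 CPM per kb, Acan and Mmp9 close the order, and the single Mmp9 point far below the rest is chronic ethanol rat 1 with 2 read pairs.

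Between withdrawal and control, Ncan was the 1 member that passed the test, and it was higher in withdrawal. A limma-voom model of all 3 groups with 3 surrogate variables (unnamed sources of variation estimated from the data) called a gene at q < 0.1, Benjamini-Hochberg adjusted over all genes of a comparison. It called 965 of 17853 genes in this comparison (5.41%), and 23 genes without withdrawal rat 6. Fitted log2 fold changes were above 0 for 5 members and below 0 for 5, with a median of -0.03, and their median size was 0.17 on the log2 scale against 0.09 over all genes. At an unadjusted p under 0.05 there were 3 members (Ncan, Vcan and Hapln1), where 19.7% of all genes reached that level.

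Neurocan (Ncan) was at a lowest, median and highest level of 110.0, 118 and 128 CPM in control rats, 96.6, 114 and 141 CPM in chronic ethanol rats, and 94.3, 143 and 227 CPM in withdrawal rats. The withdrawal rats spread widest, with rat 1 at the top and rat 5 at the bottom of all 18 rats, and the other 4 lay above every control rat. The mean was 151 ± 43.7 CPM in withdrawal against 119 ± 6.58 CPM in control (SD, n = 6 each), a log2 fold change of 0.36 (SE 0.10, limma-voom q = 0.0746). With no surrogate variables it was 0.30 (q = 0.410), and the exact permutation test of the difference in mean log2 CPM gave p = 0.104.

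The Ncan call depended on the number of surrogate variables, the filter and which rats were in the model. With 2 surrogate variables the log2 fold change was 0.32 (limma-voom q = 0.251), and with 5 it was 0.25 (q = 0.124). With the stricter filter of more than 0.5 CPM in at least 6 rats it was lost (log2 fold change 0.33, limma-voom q = 0.124). It was lost without withdrawal rat 1 (log2 fold change 0.22, limma-voom q = 0.170) and without withdrawal rat 6 (0.45, q = 0.127). It was also lost when any 1 control rat was left out, at log2 fold changes between 0.35 and 0.37 and q between 0.104 and 0.130. In those models the calls over all genes fell from 965 to between 428 and 615. Without withdrawal rat 4 the Ncan value was 0.34 (limma-voom q = 0.0353) and without withdrawal rat 5 it was 0.41 (q = 0.0278). In plain log2 CPM the difference was 0.30 over all rats, 0.17 without rat 1, 0.43 without rat 5 and 0.30 without both. Astrocytes are one source of neurocan, and their markers (10 genes) summed to a median of 4446 CPM in withdrawal (3537 to 4812 CPM), 3990 CPM in control (3738 to 4123 CPM) and 3792 CPM in chronic ethanol (3296 to 3980 CPM). Of these 10 markers, 2 passed as higher and 2 as lower between withdrawal and control, with a median fitted log2 fold change of 0.007. Gfap was higher, at a mean of 1326.5 CPM against 939 CPM, whereas Aldh1l1 (-0.41) and Gja1 (-0.13) were lower. The part of astrocyte RNA in the Ncan difference was not tested.

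Versican (Vcan), the lectican of loose matrix and nodes of Ranvier, went the other way without passing the test. Its lowest, median and highest levels were 51.2, 54.4 and 59.3 CPM in control, 43.4, 46.9 and 59.0 CPM in chronic ethanol, and 38.2, 48.5 and 54.5 CPM in withdrawal. All 6 withdrawal rats lay below the control mean, 4 of them below every control rat. The log2 fold change against control was -0.18 (SE 0.07, limma-voom q = 0.173), and the exact permutation test gave p = 0.0260. An exact p under 0.05 was reached by 12.8% of all genes. No gene passed that test after adjustment over all genes.

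Hapln1, the link protein that stabilizes the bond of lecticans to hyaluronan, had a log2 fold change of -0.30 in withdrawal against control (SE 0.10, limma-voom q = 0.107), just outside the threshold. Its lowest, median and highest levels were 58.3, 71.7 and 78.0 CPM in control rats and 37.0, 59.8 and 74.8 CPM in withdrawal rats. Of the withdrawal rats, 3 lay below every control rat and the other 3 lay within the control range. Hapln1 passed the threshold under DESeq2 (q = 0.0507), under the stricter filter (q = 0.0955) and without withdrawal rat 2, 3 or 4 (q between 0.0211 and 0.0978). It did not pass without withdrawal rat 1, which was lowest (log2 fold change -0.19, limma-voom q = 0.190), or without withdrawal rat 6 (-0.24, q = 0.356). With no surrogate variables it was -0.31 (limma-voom q = 0.425), and with 5 it was -0.14 (q = 0.388).

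Brevican (Bcan), Hapln4, Tnr, Acan, Tnc, Adamts4 and Mmp9 had limma-voom q between withdrawal and control from 0.293 (Tnr, log2 fold change -0.19) to 0.999 (Tnc, 0.00). The 95% interval was tight for Hapln4 (-0.16 to 0.05) and Bcan (-0.15 to 0.03), and wide for Mmp9 (-0.63 to 1.11). Acan was at 8.30, 8.76 and 10.2 CPM (lowest, median and highest) in control and at 7.07, 8.74 and 19.9 CPM in withdrawal. Only withdrawal rats 1 and 5 lay above all control rats for Acan, and the difference in mean log2 CPM went from 0.20 to -0.14 without both. No member had groups that did not overlap, where 1.06% of all genes did.

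**Figure D2:**
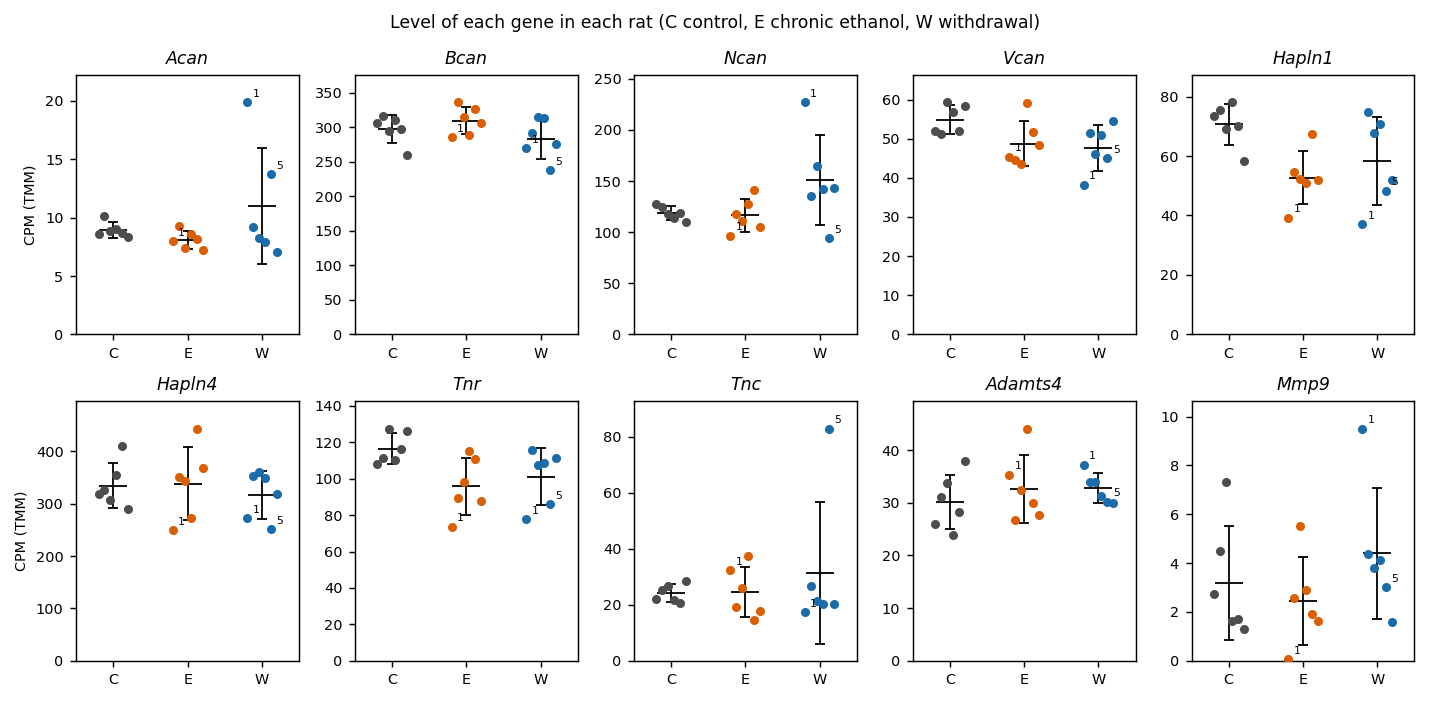
Normalized level (CPM) of each gene in each rat in control (C), chronic ethanol (E) and withdrawal (W), with the mean and SD of 6 rats as black bars and numbers marking withdrawal rats 1 and 5 and chronic ethanol rat 1. Withdrawal rat 1 is highest for Ncan (227 CPM), Acan (19.9 CPM) and Mmp9 (9.503 CPM), and withdrawal rat 5 is highest for Tnc (82.8 CPM).

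Between chronic ethanol and control, no member passed the test. The limma-voom model called 88 of 17853 genes (0.493%) and 0 members, edgeR's quasi-likelihood test called 0 members with the same surrogate variables and 0 without them, and DESeq2 called 1 (Hapln1). At an unadjusted p under 0.05 there were 5 members, 3 of them lower and 2 higher, where 12.5% of all genes reached that level. The median fitted log2 fold change of the members was -0.14 against 0.00 for all genes. This comparison shares its control rats with the one above, so that a common shift of the control rats would appear in both.

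Hapln1 had the lowest exact permutation p of the members in this comparison. Its levels in chronic ethanol rats were 39.3, 52.2 and 67.3 CPM (lowest, median and highest), and 5 of the 6 lay below every control rat. The mean was 52.7 ± 8.96 CPM against 70.7 ± 6.89 CPM in control (SD, n = 6 each), a change of -25.4%. The exact permutation test gave p = 0.00433, or 0.185 after Benjamini-Hochberg adjustment over all genes, and 13.5% of all genes had an exact p under 0.05. The fitted log2 fold change was -0.31 (SE 0.10, limma-voom q = 0.217), and -0.32 (q = 0.233) without chronic ethanol rat 1.

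Tenascin-R (Tnr) was also lower in mean without passing the adjusted test. Its levels were 108, 114 and 128 CPM (lowest, median and highest) in control, 73.6, 93.9 and 115 CPM in chronic ethanol and 77.8, 108 and 116 CPM in withdrawal. All 6 chronic ethanol rats lay below the control mean, 4 of them below every control rat. The fitted log2 fold change of chronic ethanol against control was -0.27 (SE 0.10, limma-voom q = 0.283), with an exact permutation p of 0.0216. Vcan gave a log2 fold change of -0.22 (SE 0.08, limma-voom q = 0.236) and an exact permutation p of 0.0519.

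The fitted values of Bcan and Hapln4 were above 0 and turned on the surrogate variables. Hapln4 had a log2 fold change of 0.13 with them (SE 0.05, limma-voom q = 0.309) and 0.00 without them (q = 0.996), on levels of 289, 323 and 411 CPM in control and 249, 347 and 443 CPM in chronic ethanol. For Bcan it was 0.13 (SE 0.05, limma-voom q = 0.259) and 0.06 without them (q = 0.779). Ncan, Acan, Tnc, Adamts4 and Mmp9 had q of at least 0.555 in limma-voom. Mmp9 ranged from 0.0568 CPM (2 read pairs) in chronic ethanol rat 1 to 5.51 CPM in chronic ethanol rat 3, and its 95% interval ran from -1.18 to 0.73. No member had groups that did not overlap, where 1.32% of all genes did.

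**Figure D3:**
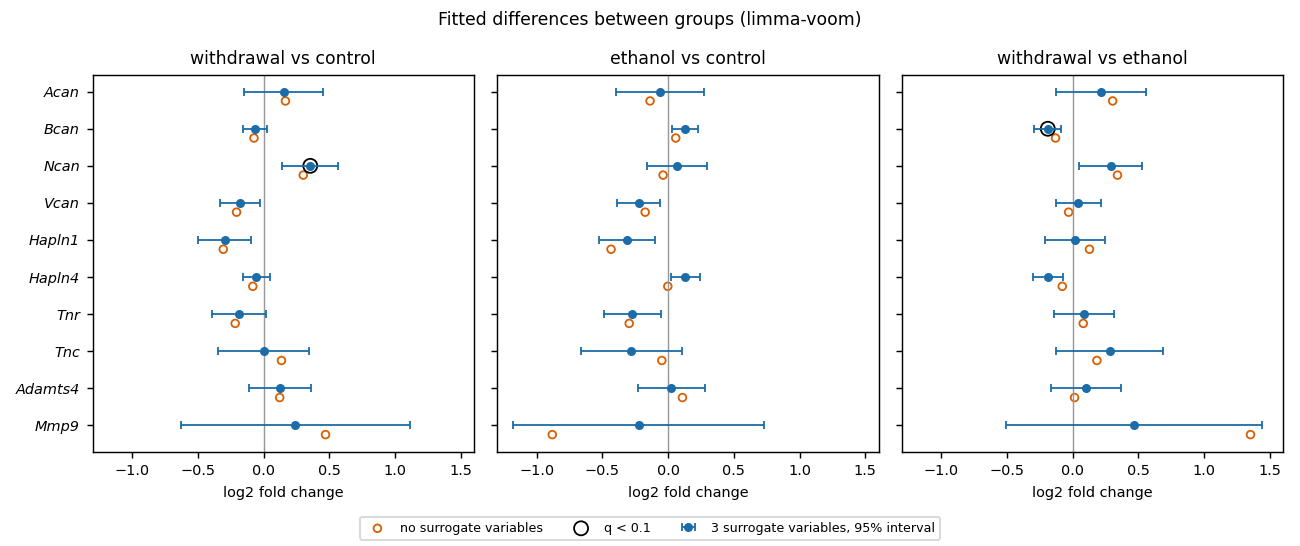
Fitted log2 fold change of each gene in the 3 comparisons with 3 surrogate variables (blue, with 95% interval) and with none (orange, open), and a black ring where q < 0.1. The rings are at Ncan in withdrawal against control (0.36) and at Bcan in withdrawal against chronic ethanol (-0.19).

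Between withdrawal and chronic ethanol, Bcan was the 1 member that passed the test, and it was lower in withdrawal. The limma-voom model called 486 of 17853 genes here (2.72%), and 0 genes without chronic ethanol rat 2, chronic ethanol rat 3 or withdrawal rat 6. Brevican is made by astrocytes and oligodendrocyte precursors and is deposited around synapses and in nets. Its lowest, median and highest levels were 260.3, 302 and 316 CPM in control, 286, 310.1 and 336 CPM in chronic ethanol and 238, 283 and 314 CPM in withdrawal. Of the withdrawal rats, 3 lay below every chronic ethanol rat and none lay above all of them. The mean was 283.7 ± 29.04 CPM against 309.6 ± 19.995 CPM in chronic ethanol (SD, n = 6 each), a change of -8.38%.

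The fitted log2 fold change of Bcan was -0.19 (SE 0.05, 95% interval -0.29 to -0.09, limma-voom q = 0.0714). With no surrogate variables it was -0.13 (q = 0.300), and the exact permutation test gave p = 0.0974. The call was lost without chronic ethanol rat 2 (log2 fold change -0.16, limma-voom q = 0.307), chronic ethanol rat 3 (-0.19, q = 0.218) or withdrawal rat 6 (-0.16, q = 0.371). It was kept without chronic ethanol rat 1 (q = 0.0660) and without withdrawal rat 5 (limma-voom q = 0.0729). With the replicate number as a block the log2 fold change was -0.18 (limma-voom q = 0.122). Within index set 2, the 2 withdrawal rats differed from the 6 chronic ethanol rats by -0.14 in mean log2 CPM (exact permutation p = 0.179, of which 0.0357 is the smallest possible), and the 4 withdrawal rats of set 3 differed from those chronic ethanol rats by -0.12. These were -0.085 without withdrawal rat 1 (which leaves 1 rat of set 2 and no test) and -0.041 without withdrawal rat 5.

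Hapln4 had nearly the same fitted value as Bcan, -0.19 (SE 0.06, limma-voom q = 0.108). With no surrogate variables it was -0.079 (limma-voom q = 0.773). It passed the threshold without control rat 5, chronic ethanol rat 4 or withdrawal rat 2, 3, 4 or 5 (q between 0.0602 and 0.0977), under DESeq2 (q = 0.0477), the stricter filter, quality weights or 5 surrogate variables, and q was 0.416 without withdrawal rat 6. Its plain levels overlapped widely, with 252, 333 and 361 CPM in withdrawal against 249, 347 and 443 CPM in chronic ethanol, and the exact permutation test gave p = 0.610. Ncan had a log2 fold change of 0.29 (SE 0.11, limma-voom q = 0.206), with q = 0.0853 without withdrawal rat 5 and q = 0.0820 with 5 surrogate variables. It was 0.19 without withdrawal rat 1 (limma-voom q = 0.280) and 0.20 without chronic ethanol rat 2 (q = 0.523). Within index set 2 the Ncan difference was 0.60 in mean log2 CPM (exact permutation p = 0.0714), and 0.21 for the set 3 rats. The first rests on 2 rats and was 0.23 without withdrawal rat 1, which leaves 1 rat and no test, and the second was 0.38 without withdrawal rat 5. These 3 genes were the members with an unadjusted p under 0.05, where 16.7% of all genes had one.

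The other 7 members had limma-voom q of at least 0.489 in this comparison. For Hapln1 the log2 fold change was 0.02, with a 95% interval from -0.21 to 0.25. No member had groups that did not overlap, where 1.22% of all genes did, and no member had an exact permutation p under 0.05, where 14.3% of all genes had one.

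Neither protease passed the test in any comparison. Adamts4 was at 23.9, 29.7 and 37.9 CPM (lowest, median and highest) in control, 26.7, 31.1 and 44.1 CPM in chronic ethanol and 29.9, 32.6 and 37.2 CPM in withdrawal. All 6 withdrawal rats lay above the control median, but within the range of the control rats, and the log2 fold change was 0.13 (SE 0.11, limma-voom q = 0.562). Mmp9 rested on 2 to 292 read pairs per rat, with 1.296, 2.22 and 7.32 CPM in control, 0.0568, 2.26 and 5.51 CPM in chronic ethanol and 1.57, 3.96 and 9.503 CPM in withdrawal. Its SD was 61.4% to 74.1% of the mean in the 3 groups, the largest relative spread of any member except Tnc in withdrawal (80.7%). Tnc, the tenascin of growth zones and reactive glia, lay between 17.2 and 26.6 CPM in 5 withdrawal rats and at 82.8 CPM in withdrawal rat 5.

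Rat to rat, several members moved together. Deviations of log2 CPM from the group means were correlated over 18 rats for all 45 pairs of members, with 100000 permutations within groups. Of the 45 pairs, 5 had an adjusted p under 0.05. Bcan and both link proteins formed a triangle. For Bcan and Hapln1, r was 0.738 (permutation p = 0.00259, adjusted p = 0.0233) and Spearman's rho was 0.882 (permutation p = 6e-05). For Bcan and Hapln4, r was 0.734 (permutation p = 0.00066, adjusted p = 0.0099) and rho 0.734 (permutation p = 0.00228). For Hapln1 and Hapln4, r was 0.759 (permutation p = 0.00027, adjusted p = 0.0099) and rho 0.792 (permutation p = 0.00074).

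Leaving out the 2 rats farthest from the median gave r of 0.758, 0.677 and 0.717 for these 3 pairs. Within the control rats (index set 1) r was 0.980, 0.461 and 0.473, and within the chronic ethanol rats (index set 2) it was 0.745, 0.818 and 0.900. Within the withdrawal rats (sets 2 and 3) it was 0.701, 0.931 and 0.854. Without chronic ethanol rat 1 it was 0.715, 0.718 and 0.703, with adjusted permutation p of 0.0629, 0.0329 and 0.0329. Without withdrawal rats 1 and 5, Bcan with Hapln1 (r = 0.771, adjusted permutation p = 0.0197) and Hapln1 with Hapln4 (r = 0.741, adjusted permutation p = 0.0263) stayed under 0.05, and Bcan with Hapln4 did not (r = 0.637, adjusted permutation p = 0.116).

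Vcan and Tnr, which bind each other at nodes of Ranvier, gave r = 0.792 (permutation p = 0.00061, adjusted p = 0.0099) and rho = 0.783 (permutation p = 0.00082). This was 0.660 without the 2 farthest rats, 0.745 within control rats, 0.691 within chronic ethanol rats, 0.902 within withdrawal rats, and 0.670 without withdrawal rats 1 and 5 (adjusted permutation p = 0.145). Hapln4 and Tnc varied in opposite directions, with r = -0.680 (permutation p = 0.0018, adjusted p = 0.0203) and rho = -0.649 (permutation p = 0.00835). The Hapln4 and Tnc relation was -0.626 without the 2 farthest rats, -0.846 within control rats, -0.930 within chronic ethanol rats, -0.578 within withdrawal rats and -0.840 without withdrawal rats 1 and 5 (adjusted permutation p = 0.0173). The neighbouring genes Vcan and Hapln1, and Ncan and Hapln4, were not among the 5 pairs.

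The same deviations were set against the mean log2 CPM of 13 lists of cell type markers, 130 relations in all, of which 8 had an adjusted p under 0.05. Bcan, Hapln1 and Hapln4 were each lower in rats with more thalamic neuron marker RNA. For Hapln4 r was -0.840 (permutation p = 0.00017, adjusted p = 0.00737) and rho -0.744 (permutation p = 0.00092). For Hapln1 r was -0.760 (permutation p = 1e-05, the smallest the permutations can give, adjusted p = 0.0013) and rho -0.789 (permutation p = 5e-05). For Bcan r was -0.723 (permutation p = 0.00016, adjusted p = 0.00737) and rho -0.769 (permutation p = 0.00029).

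Without the 2 farthest rats these were -0.723 for Hapln4, -0.733 for Hapln1 and -0.765 for Bcan. Within control rats they were -0.603, -0.930 and -0.970, within chronic ethanol rats -0.989, -0.923 and -0.830, and within withdrawal rats -0.685, -0.807 and -0.705. Without chronic ethanol rat 1, the rat highest in thalamic markers, they were -0.785, -0.707 and -0.736, each with an adjusted permutation p of 0.0293. Without withdrawal rats 1 and 5 they were -0.863, -0.854 and -0.807, each with an adjusted permutation p of 0.0127. In plain log2 CPM, without surrogate variables, the summed thalamic list did not differ between groups beyond its spread (exact permutation p of 0.900, 0.561 and 0.506 for withdrawal against control, chronic ethanol against control and withdrawal against chronic ethanol). In the limma-voom model with 3 surrogate variables, the 10 thalamic markers had a median log2 fold change of -0.25 in chronic ethanol against control. Of them 6 were lower at an unadjusted p under 0.05, where 5.54% of all genes were. In withdrawal against chronic ethanol the median was 0.20, with 3 higher (8.06% of all genes), and in withdrawal against control it was -0.08, with 0. None passed q < 0.1. The summed astrocyte list was higher in withdrawal than in chronic ethanol (exact permutation p = 0.0152). The part of either list in the Bcan difference was not tested.

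**Figure D4:**
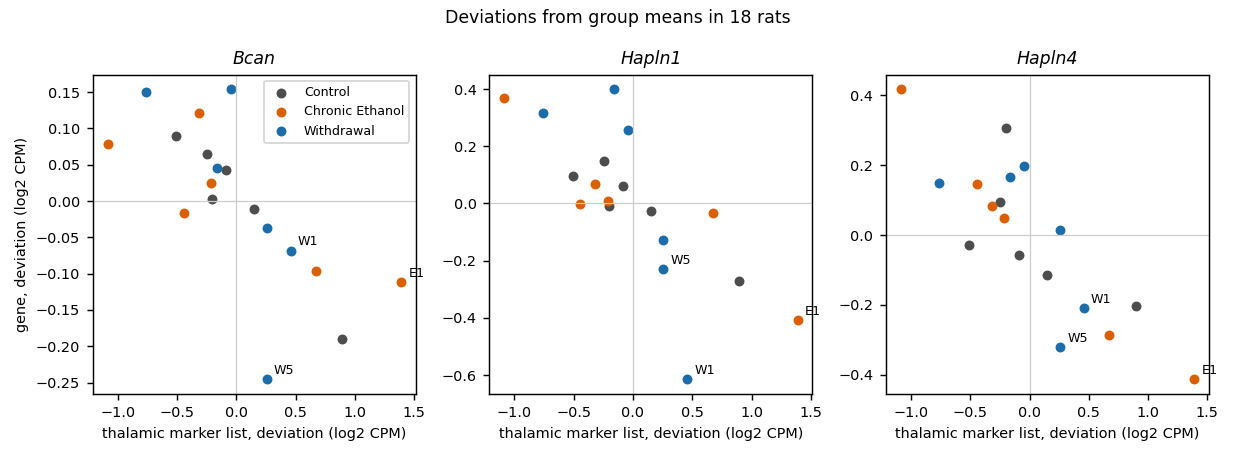
Deviation of Bcan, Hapln1 and Hapln4 from their group means against that of the mean of 10 thalamic neuron markers (both in log2 CPM) in 18 rats, coloured by group. In each panel the points fall from upper left to lower right (r = -0.723, -0.760 and -0.840), with chronic ethanol rat 1 at the far right.

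Hapln4 also varied with hippocampal neuron markers (r = 0.772, permutation p = 0.00023, adjusted p = 0.00747, rho = 0.820, permutation p = 0.00038) and against parvalbumin interneuron markers (r = -0.735, permutation p = 0.00127, adjusted p = 0.0275, rho = -0.711, permutation p = 0.00294). They were 0.790 and -0.727 without the 2 farthest rats, 0.920 and -0.957 within control rats, 0.781 and -0.608 within chronic ethanol rats, and 0.891 and -0.826 within withdrawal rats. Without withdrawal rats 1 and 5 they were 0.742 and -0.626, with adjusted permutation p of 0.115 and 0.259. Adamts4 went with oligodendrocyte precursor markers, at r = 0.753 (permutation p = 0.00265, adjusted p = 0.0431) and rho = 0.763 (permutation p = 0.00155), and this was 0.641 without the 2 farthest rats, 0.799 within control rats, 0.791 within chronic ethanol rats and 0.419 within withdrawal rats. Without withdrawal rats 1 and 5 the Adamts4 relation was 0.794 (adjusted permutation p = 0.0499), and without chronic ethanol rat 1 it was 0.751 (adjusted permutation p = 0.0780).

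Tnc went with mature oligodendrocyte markers, at r = 0.569 (permutation p = 0.00074, adjusted p = 0.0192) and rho = 0.703 (permutation p = 0.00118). It was 0.659 without the 2 farthest rats, 0.813 within control rats, 0.826 within chronic ethanol rats and 0.672 within withdrawal rats. Without withdrawal rats 1 and 5 it was 0.782, with an adjusted permutation p of 0.0511. Hapln1 went against endothelial markers (r = -0.716, permutation p = 0.00221, adjusted p = 0.0410, rho = -0.595, permutation p = 0.0238), at -0.665 without the 2 farthest rats, -0.522 within control rats, -0.574 within chronic ethanol rats and -0.890 within withdrawal rats. That relation had an adjusted permutation p of 0.110 without withdrawal rat 1 and 0.220 without withdrawal rats 1 and 5. For Acan, the gene most tied to nets on parvalbumin interneurons, r with parvalbumin markers was 0.631 (permutation p = 0.0222, adjusted p = 0.132, rho = 0.657, permutation p = 0.0104), 0.653 without the 2 farthest rats and 0.455 without withdrawal rats 1 and 5. It was 0.152 within control, 0.592 within chronic ethanol and 0.799 within withdrawal rats. With markers of CA2 pyramidal neurons (8 genes, with Avpr1b at 0 in all rats), Acan gave r = -0.633 (permutation p = 0.0141, adjusted p = 0.124, rho = -0.668, permutation p = 0.00701), -0.656 without the 2 farthest rats, and -0.905, -0.361 and -0.786 within the 3 groups in the same order. Neither Acan relation passed the adjustment.

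**Figure D5:**
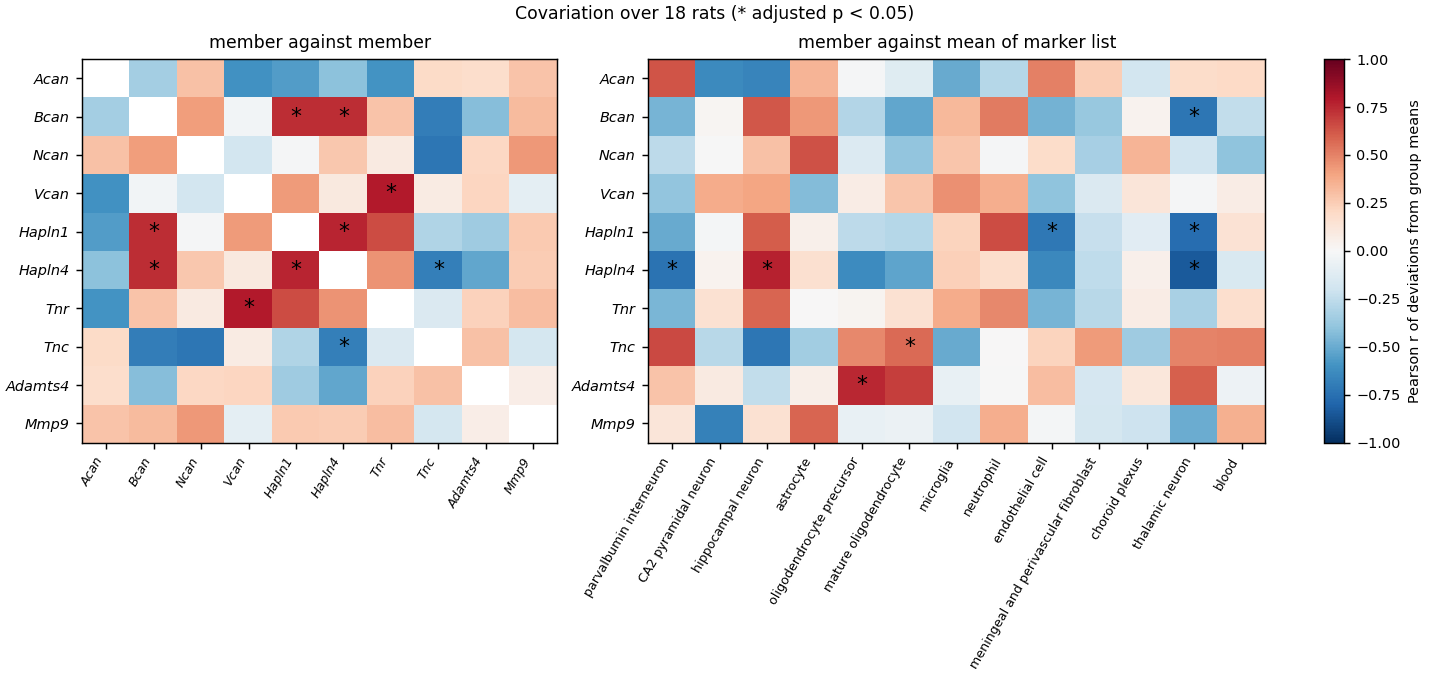
Pearson r of deviations from group means over 18 rats, between members (left) and between members and the means of 13 marker lists (right), with asterisks at adjusted p < 0.05. The 5 pairs and 8 member and list relations with asterisks include the negative thalamic column for Bcan (-0.723), Hapln1 (-0.760) and Hapln4 (-0.840).

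The genes most like each member were sought by Pearson r of the same deviations over 18 rats among 15144 genes with a mean above 1 CPM, and are given as a description. Hapln4 followed Wscd2 (r = 0.969), Map2k1 (0.957) and Slitrk5 (0.954), and these were 0.965, 0.959 and 0.939 without withdrawal rats 1 and 5. Bcan followed Neurl1 (0.939) and Hapln1 followed Mpped2 (0.944), each at 0.897 without those rats. Ncan followed Ptgs2, the inducible cyclooxygenase, at 0.942 and at 0.830 without those rats. Tnr followed Mtcl3 (0.904), Vcan followed Pcyt1b (0.845), Tnc followed Ppt1 (0.930) and Adamts4 followed Susd5 (0.896). Mmp9 followed Gapvd1 (0.898). For Acan the best match was Haus8 (0.933), which dropped to 0.342 without withdrawal rats 1 and 5.

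The other genes of the matrix pathway were taken from 7 lists with 86 genes, of which 82 passed the filter. Between withdrawal and control 8 were higher and 2 lower at q < 0.1 in limma-voom (5.41% of all genes were called), between chronic ethanol and control 0 were higher and 1 lower (0.493%), and between withdrawal and chronic ethanol 3 were higher and 3 lower (2.72%). With no surrogate variables the counts in the same order were 0, 2 and 1 genes, namely Hapln2 and Cemip2 in chronic ethanol against control and Cemip2 in withdrawal against chronic ethanol.

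Among the other 2 link proteins, Hapln2, the link protein of nodes of Ranvier and the neighbour of Bcan, was at 138.5 ± 10.52 CPM in control, 199.9 ± 29.01 CPM in chronic ethanol and 192.5 ± 36.03 CPM in withdrawal (SD, n = 6 each). All 6 chronic ethanol rats lay above all control rats. The Hapln2 log2 fold change against control was 0.47 in withdrawal (limma-voom q = 0.0304) and 0.41 in chronic ethanol (q = 0.134). With no surrogate variables it was 0.46 (limma-voom q = 0.133) and 0.52 (q = 0.0953), so that the call moved from one comparison to the other. Withdrawal against chronic ethanol was 0.053 (limma-voom q = 0.857), and Hapln3 passed in no comparison. Of the chondroitin sulfate enzymes, 22 tested, Papss2, which makes the sulfate donor, rose in withdrawal against control by a log2 fold change of 0.45 (limma-voom q = 0.0270), with all 6 withdrawal rats above all control rats. Chsy1, which polymerizes the chain, rose by 0.31 (limma-voom q = 0.0358), from a mean of 25.7 CPM in control to 30.7 CPM, with 29.8 CPM in chronic ethanol, and Csgalnact1, which starts it, had a log2 fold change of -0.25 (limma-voom q = 0.0694). Xylt1, which attaches the first sugar to the core protein, was higher in withdrawal than in chronic ethanol by 0.21 (limma-voom q = 0.0738).

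Among 18 other matrix proteases tested, 3 rose in withdrawal against control and none fell. They were Mmp14, a membrane-bound metalloprotease, at a log2 fold change of 0.70 (limma-voom q = 0.0199), Plat, tissue plasminogen activator, at 0.47 (limma-voom q = 0.0267, no overlap of the groups), and Adamts1, which cuts lecticans, at 0.47 (limma-voom q = 0.0905). The Adamts1 mean was 13.4 CPM in control, 18.6 CPM in chronic ethanol and 18.0 CPM in withdrawal. Mmp14 was also higher in withdrawal than in chronic ethanol, by 0.58 (limma-voom q = 0.0648), or by 0.16 with no surrogate variables (q = 0.737). Of 8 protease inhibitors tested, Timp1 rose in withdrawal against control by 1.33 (SE 0.39, limma-voom q = 0.0807), and Timp4 was lower in withdrawal than in chronic ethanol by a log2 fold change of -0.41 (limma-voom q = 0.0626).

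Of 10 hyaluronan genes tested, Cemip2, a hyaluronidase of the cell surface, was at 24.1 ± 1.65 CPM in control, 19.04 ± 2.52 CPM in chronic ethanol and 25.4 ± 1.53 CPM in withdrawal (SD, n = 6 each). It was lower in chronic ethanol than in control (log2 fold change -0.24, limma-voom q = 0.0847) and higher in withdrawal than in chronic ethanol (0.29, limma-voom q = 0.0317, no overlap of the groups), and both calls also held with no surrogate variables (q = 0.0958 and 0.0302). When each rat was left out in turn, Cemip2 passed between chronic ethanol and control in 6 of 18 models (limma-voom q up to 0.217) and between withdrawal and chronic ethanol in 15 of 18 (q up to 0.267). Of 12 receptors and net regulators tested, Sema3a, a guidance cue held in nets, rose in withdrawal against control by 0.62 (limma-voom q = 0.05999). Nptx1, a synaptic pentraxin, was lower in withdrawal than in control (-0.22, limma-voom q = 0.0440) and than in chronic ethanol (-0.22, limma-voom q = 0.0967), and Rtn4r, a receptor for matrix inhibitors of growth, was lower than in chronic ethanol (-0.26, limma-voom q = 0.0916). None of the 10 other brain proteoglycans passed in any comparison, with 0, 2 and 3 of them at an unadjusted p under 0.05 in withdrawal against control, chronic ethanol against control and withdrawal against chronic ethanol, where 19.7%, 12.5% and 16.7% of all genes reached that level.

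The calls of these other matrix genes depended on single rats, as did the calls over all genes. Of 17 calls over the 3 comparisons, all 17 were lost without withdrawal rat 6. In that model the calls over all genes between withdrawal and control fell from 965 to 23. Its log2 fold changes against control were 0.47 for Papss2 and 0.66 for Mmp14 (0.45 and 0.70 with all rats), and 0.32 for Hapln2 (0.47 with all rats). Leaving out 1 control rat lost between 5 and 8 of the 17, with 428 to 615 calls left over all genes between withdrawal and control. Leaving out chronic ethanol rat 2 or 3 lost 7, and leaving out any other chronic ethanol or withdrawal rat lost between 1 and 5 (4 for withdrawal rat 1). Timp1 had a log2 fold change of 0.89 (limma-voom q = 0.134) in withdrawal against control without withdrawal rat 1, and Adamts1 one of 0.33 (q = 0.162). Signs did not change in any of these models.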

How the data were processed

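RNA was sequenced from the dorsal hippocampus of 18 rats, 6 in each of 3 groups. Per the file headers and the submitters' processing notes, the authors aligned read pairs with STAR 2.5.2a to Rnor_6.0. The deposited values are counts that featureCounts 1.5.0 made per gene, summed over exons by strand and not normalized. Totals on genes ran from 30873228 to 42679748 per rat, so that Poisson counting error per rat was at most 4.42% for 8 members, 6.46% for Acan and 70.7% for Mmp9. Groups and replicate numbers came from the sample labels. Of 38445 identifiers, 29322 were named from the RefSeq table.

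Scaling was by TMM (edgeR 4.0.16). Genes above 0.5 CPM in 1 or more rats (17853) entered a limma-voom fit (limma 3.58.1, R 4.3.3), one model of 3 groups with 3 surrogate variables from sva 3.50.0 (log2 CPM, prior count 2), at q < 0.1 after Benjamini-Hochberg adjustment. The number of surrogate variables and the number of rats in the filter are not given in the sources used here and were chosen for this work. The fit was run on simulated counts only without surrogate variables and with no hidden variation between rats. The setting with 3 surrogate variables was therefore not tested on simulated counts. For single genes a permutation test (exact, two-sided) ran over all 924 splits, with a smallest p of 0.00216, and correlations were tested with 100000 permutations within groups. Other tools were DESeq2 1.42.0, matplotlib 3.10.9, scipy 1.17.1, pandas 2.3.3, numpy 2.4.6 and Python 3.11.15. No pair of rats within a group had counts that agreed within sampling noise (lowest chi-square per degree of freedom 5.74 in 45 pairs).

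Named genes are the members, up to 3 genes per list and comparison at the lowest q under 0.1, and for each member the 3 genes of highest r, of which some are printed. The members, lists and tests were chosen with earlier results of these data known, so that they are not independent of those results. Alternatives were other numbers of surrogate variables, edgeR's quasi-likelihood test, DESeq2, other scaling, filters and weights, 2 groups only, a replicate block, and leaving out each rat. The human samples and other assays of the study were not used here.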

Additional observations from a re-analysis of the deposited data

Results flagged for a closer look

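Levels of the 10 members were looked at in 3 groups each, 30 groups in all, and 2 of these held a rat far from the other 5 by Dixon's 95% criterion, which chance alone meets in about 1 of 20 groups. Tnc was at 82.8 CPM in withdrawal rat 5, and the gap to the next rat was 0.858 of the range of the group. Mmp9 was at 9.503 CPM in withdrawal rat 1, with a gap of 0.647 of the range. Both rats also stood apart in the sums of cell type markers or in other members, as given above.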

How the results depend on the processing

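The number of members called between withdrawal and control was 0 at q < 0.05, with 0, 2 or 5 surrogate variables, with edgeR without surrogate variables and with the replicate block without surrogate variables, and 2 with DESeq2. With the stricter filter it was still 1, but Hapln1 in place of Ncan. Between chronic ethanol and control it was 1 with 5 surrogate variables and 1 with DESeq2. Between withdrawal and chronic ethanol it was 3 with 5 surrogate variables, 2 with DESeq2, the stricter filter or sample quality weights, and 0 at q < 0.05, with 0 or 2 surrogate variables, with edgeR without surrogate variables, with no filter, with only the 2 groups, with the replicate block with or without surrogate variables, and with index set as a term. Leaving out 1 rat gave 0 to 2, 0 to 0 and 0 to 3 members called in these comparisons, and 0 to 1, 0 to 1 and 0 to 0 members whose groups did not overlap.

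Of all genes, the withdrawal against control count of 965 became 370 at q < 0.05, 41 with no surrogate variables, 594 with 2, 262 with 5, 33 with edgeR without surrogate variables, 1624 with DESeq2, 486 with no filter and 0 with the replicate block without surrogate variables, and 23 to 1911 without 1 rat. The chronic ethanol against control count of 88 became 10 at q < 0.05, 50 with no surrogate variables, 322 with 5, 473 with DESeq2, 9 with no filter, 440 with quality weights, 28 with only the 2 groups, 33 with the replicate block and 0 with the block without surrogate variables, and 0 to 258 without 1 rat. The withdrawal against chronic ethanol count of 486 became 112 at q < 0.05, 260 with 2 surrogate variables, 871 with 5, 1176 with DESeq2, 166 with no filter, 1073 with quality weights, 0 with only the 2 groups, 1 with the replicate block, 14 with the block without surrogate variables and 0 with index set as a term, and 0 to 1800 without 1 rat. The causes were not tested.

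Some log2 fold changes changed sign. Against control in withdrawal, Acan was at -0.12 with 5 surrogate variables, and Tnc at -0.079 with no filter and -0.0044 with only the 2 groups. In chronic ethanol against control, Ncan was at -0.038 with no surrogate variables, -0.011 with 2, -0.029 with edgeR without them and -0.038 with the block without them. Hapln4 was at -0.0024 with no surrogate variables and -0.0035 with the block without them, Tnc at 0.022 with edgeR without surrogate variables, and Mmp9 at 0.22 with edgeR, 0.36 with DESeq2 and 0.44 with only the 2 groups. In withdrawal against chronic ethanol, Vcan was at -0.031 with no surrogate variables, with edgeR without them and with the block without them, and -0.12 with index set as a term. Hapln1 was at -0.0017 with 2 surrogate variables, Tnc at -0.087 with index set as a term, and Mmp9 at -0.076 with DESeq2. Without 1 rat, log2 fold changes crossed 0 for Acan (-0.14 to 0.025), Adamts4 (-0.035 to 0.13) and Mmp9 (-0.46 to 0.17) in chronic ethanol against control, for Acan (-0.013 to 0.27) and Tnc (-0.13 to 0.20) in withdrawal against control, and for Adamts4 (-0.00086 to 0.23), Hapln1 (-0.090 to 0.097), Vcan (-0.011 to 0.074) and Mmp9 (-0.16 to 0.73) in withdrawal against chronic ethanol.

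Member pairs that varied together were 8 without withdrawal rat 1, the 5 given above and Bcan with Ncan (r = 0.726), Bcan with Tnc (-0.784) and Ncan with Hapln1 (0.696). Relations with marker lists were 5 without withdrawal rats 1 and 5, of which 4 were among the 8 given above and 1 was Tnc with oligodendrocyte precursor markers (r = 0.877, adjusted permutation p = 0.0127, against 0.483 and 0.132 over all rats). The replicate block used the numbers in the labels, which only name the rats. Of 18 pairs of rats with the same number, 4 had deviations correlated above 0.1 (range -0.325 to 0.383), so that the numbers were not taken as a pairing. With the block, the Ncan log2 fold change was 0.35 in withdrawal against control (limma-voom q = 0.0643). The block without surrogate variables, index set as a term, and leaving out withdrawal rats 1 and 5 together, or chronic ethanol rat 1 in the correlations, were chosen after seeing the data. Read pairs were fewest for Mmp9, with as few as 2 in a rat, and Acan, with as few as 240. Counting error per rat was at most 5.95% for Acan in withdrawal, where its SD was 44.9% of the mean. For Mmp9 it was at most 14.6% in control and 12.4% in withdrawal rats, against SDs of 72.9% and 61.4% of the mean.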

Other observations

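Without withdrawal rat 1, the number of member pairs with an adjusted permutation p under 0.05 was 8 in place of 5. The added pairs were Bcan with Ncan (r = 0.726, adjusted permutation p = 0.0408), Ncan with Hapln1 (r = 0.696, adjusted permutation p = 0.0397) and Bcan with Tnc (r = -0.784, adjusted permutation p = 0.0182). With all 18 rats these 3 pairs had r of 0.421, -0.01 and -0.690. Without withdrawal rats 1 and 5 they had r of 0.487, 0.596 and -0.587, with adjusted permutation p of 0.220, 0.180 and 0.131.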
